A study of Mus musculus with 6 samples.

Results

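The small leucine-rich proteoglycans (SLRPs) were examined in *Clk4*-cKO myocardium after AAV delivery of either NEXN-WT or NEXN-S437E. The 10 genes *Dcn*, *Bgn*, *Lum*, *Fmod*, *Ogn*, *Prelp*, *Aspn*, *Omd*, *Podn* and *Ecm2* were taken by symbol from the array's annotation, out of 27307 gene symbols, and every probe of each was kept (14 of 56605 probes). There were 3 mice per group, all male C57BL/6J, with 1 array per mouse and total RNA of the myocardium labelled with Cy3. All 6 mice carried floxed *Clk4* and α-MHC-MerCreMer, a Cre that tamoxifen activates in cardiomyocytes, so the floxed gene was targeted in that cell type in both groups. How far the kinase was lost in these hearts was not measured here. NEXN is an actin-binding protein of the Z-disc. In the S437E form a serine is replaced by glutamate, a phosphomimic, and the virus was an AAV9 vector with a CMV promoter, which is not restricted to cardiomyocytes. The labels give no age, and hearts without virus or with intact *Clk4* were not analysed here, so each value compares the phosphomimic with the wild-type protein within *Clk4*-cKO hearts. The comparison asks how the matrix genes of this family stood when sustained NEXN phosphorylation was mimicked.

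SLRPs are secreted proteins whose core is a stack of leucine-rich repeats that bends into a curved shape and binds collagen fibrils. Most carry chondroitin, dermatan or keratan sulfate chains, and several also bind growth factors of the TGF-β family or signal through receptors on other cells. In the heart they are made mainly by fibroblasts and other stromal cells, and they are known for setting fibril spacing and diameter in normal and scarred myocardium. *Dcn* (decorin), *Bgn* (biglycan) and *Aspn* (asporin) belong to the first class, *Fmod* (fibromodulin), *Lum* (lumican), *Prelp* and *Omd* (osteomodulin) to the second, *Ogn* (osteoglycin, or mimecan) to the third, and *Podn* (podocan) to the fifth. *Ecm2* encodes a related matrix protein with leucine-rich repeats.

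Of the 14 probes, 2 are shown because their letters, read in the 3 forward frames, carry features of these proteins in a single open frame. The 60 bases of a *Prelp* probe (A_65_P16773, mm9 chr1:135809343-135811065, minus strand) span 1723 bases of the genome. Its only open frame holds a match to the core of a leucine-rich repeat (leucines at fixed spacing followed by an asparagine), which is in capitals. The main *Bgn* probe (A_52_P162486, mm9 chrX:70738554-70738613, plus strand) has a single open frame with the triplet asparagine, any residue but proline, and serine or threonine at which proteins can be N-glycosylated, in capitals. The open frame of the *Prelp* probe holds 2 such triplets, which are not marked. An *Ecm2* probe also has 1 but 2 open frames, and is not shown.
Prelp A_65_P16773: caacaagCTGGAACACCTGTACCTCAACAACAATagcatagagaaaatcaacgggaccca
Bgn A_52_P162486: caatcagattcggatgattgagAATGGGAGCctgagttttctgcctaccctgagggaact

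Values are log2 processed signals minus the 75th percentile of their array, so that 0 is the signal at that percentile. The 75th percentile was 154 to 273 intensity units on the NEXN-WT arrays and 110 to 160 on the NEXN-S437E arrays, 41.9% to 47.8% of spots were well above background, and 0 were saturated. NEXN-WT replicate 1 stood apart, with a mean absolute log2 difference of 0.38 to 0.56 from the other arrays, against 0.19 to 0.33 among the other 5. Each member is therefore also given without it. Both groups had received *Nexn* and carried the *Clk4* deletion, so neither gene can check the labels. *Nexn* differed by 0.01 and 0.13 (log2) on its 2 probes and *Clk4* by 0.13 on its tested probe, while 2 further *Clk4* probes were too dim to be tested. The probes' position relative to the deleted exons or to the viral transcript was not determined.

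In hearts given NEXN-S437E, 3 SLRP genes fell more than 2-fold at an unadjusted p below 0.05 (limma), *Fmod*, *Omd* and *Aspn*, and 0 rose past these thresholds. They were 3 of 12 tested SLRP probes, where 1.81% of all 22998 tested probes were called lower. *Fmod* and *Omd* were tested through the NEXN-WT group, in which they were high, and when detection in all 6 hearts was required 1 of 9 was called (*Aspn*), beside 1.17% of 21110 such probes. Counted by gene they were 3 of 10, beside 2.18% of genes called lower and 0.764% called higher. In 11 of 12 probes the difference was negative, and its median over 1 probe per gene was −0.82 (log2), beside 0.08 over all tested probes. The unadjusted p was below 0.05, in the lower direction, for 9 of 12 probes (6.83% of all tested probes), and in 9 of 12 every NEXN-S437E array lay below every NEXN-WT array (9.3% of all). The 9 probes with an unadjusted p below 0.05 became 1 (*Omd*) with the slide row as a term in the fit, 3 with the unpaired test of the study's methods, and 5 without NEXN-S437E replicate 2. With the slide row term only NEXN-S437E replicate 1 set the group difference, since the second row held no NEXN-WT array. Such a fit cannot separate row from group in the other NEXN-S437E arrays. After Benjamini-Hochberg adjustment over all tested probes 0 of 12 passed 0.05 (0.17% of all did), and their adjusted p ran from 0.135 to 0.765. On this scale the difference of *Dcn* was near 0, and that of *Podn* was above 0. For *Dcn*, 3 other scalings, all by quantile normalization or closely matching it, gave −0.45 to −0.40. A probe was tested when every array of 1 or both groups had it well above background, and 9 of the 12 met this on all 6 arrays. Second probes of *Bgn* (A_52_P19711) and *Prelp* (A_55_P2144736) stayed near background throughout and were not tested.

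*Fmod*, which encodes a keratan sulfate proteoglycan that binds type I collagen and modulates fibril growth, fell the most. It measured 2.43, −0.78 and −0.58 with NEXN-WT and −2.26, −3.45 and −3.13 with NEXN-S437E. The groups did not overlap, but the NEXN-WT replicates were far apart, with replicate 1 high. The difference was −3.30 (SE 0.79, limma unadjusted p = 0.0031, adjusted p = 0.135), or 9.86-fold between the geometric means, with a 95% interval of −5.12 to −1.48. The probe was well above background on 2 of the 3 NEXN-S437E arrays, so that low signals there are poorly measured. Without NEXN-WT replicate 1 the difference was −2.26, still past both thresholds, and with the slide row as a term it was −2.62 with an unadjusted p of 0.0624.

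*Omd*, best known from bone, where its acidic product binds mineral, measured 0.28, −2.10 and −1.58 against −3.33, −3.26 and −2.71. All NEXN-S437E hearts lay below all NEXN-WT hearts, and 2 of the 3 NEXN-S437E arrays were well above background. It fell by 1.97 on the log2 scale (SE 0.54, limma unadjusted p = 0.0068, adjusted p = 0.166) and by 1.26 without NEXN-WT replicate 1. It did not reach 2-fold with normexp background correction (−0.87) or estimated array weights (−0.98), and with the unpaired test of the study's methods its p was 0.058. *Aspn*, which encodes a member that carries no glycosaminoglycan chain and binds TGF-β and collagen, measured 2.17, −0.04 and −0.40 against −1.40, −1.18 and −0.98. Again replicate 1 was the high NEXN-WT heart, and the groups did not overlap. The difference was −1.76 (SE 0.59, limma unadjusted p = 0.0172, adjusted p = 0.216). Without NEXN-WT replicate 1 it was −0.97, short of 2-fold, with an unadjusted p of 0.0015, and with the slide row as a term it was −1.97 (unadjusted p = 0.0683). The unpaired test of the methods gave *Aspn* a p of 0.0956.

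The other members of the second class, *Lum* and *Prelp*, were lower by less than 2-fold on the 75th percentile scale. *Lum*, whose product binds collagen and, through its keratan sulfate, keeps the cornea clear, measured 7.13, 6.09 and 6.53 against 6.09, 5.67 and 5.79. Its lowest NEXN-WT and highest NEXN-S437E hearts nearly met. The difference was −0.74 (SE 0.26, limma unadjusted p = 0.0237, adjusted p = 0.233), and −0.46 (unadjusted p = 0.0525) without NEXN-WT replicate 1. *Prelp*, whose product binds heparan sulfate and collagen and is thought to anchor basement membranes, measured 6.09, 5.33 and 5.28 against 4.92, 4.52 and 4.66 on its brighter probe (A_52_P486260). The difference was −0.87 (SE 0.24, unadjusted p = 0.0068, adjusted p = 0.166), and the dimmer repeat-spanning probe printed above gave −0.61 (SE 0.21, unadjusted p = 0.0186). They were −0.61 (unadjusted p = 0.0069) and −0.40 (unadjusted p = 0.0279) without NEXN-WT replicate 1. On both probes the groups were apart, so the 2 probes of *Prelp* had the same direction. On the deposited normalized values the brighter probe differed by −1.05 (unadjusted p = 0.0084), past both thresholds.

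*Bgn*, a proteoglycan that binds collagen and, once released from the matrix, signals through Toll-like receptors, measured 3.23, 2.20 and 2.34 against 1.81, 1.58 and 1.55 on the probe shown above. The groups did not overlap and the NEXN-S437E hearts were close together. The difference was −0.95 (SE 0.27, limma unadjusted p = 0.0078, adjusted p = 0.177), just short of 2-fold, and −0.63 (unadjusted p = 0.0039) without NEXN-WT replicate 1. It was −1.02 (unadjusted p = 0.0113) on the deposited normalized values, past both thresholds. A dim second probe (A_55_P2715668), well above background on 2 of 3 NEXN-S437E arrays, gave −0.74 (SE 0.41, unadjusted p = 0.110) with overlapping groups, and −0.37 without NEXN-WT replicate 1. *Ogn*, whose product regulates collagen fibrils and is linked to heart mass in rodents and people, measured 5.13, 3.84 and 4.12 against 3.58, 3.41 and 3.76. The difference was −0.78 (SE 0.31, unadjusted p = 0.0384, adjusted p = 0.267), and −0.39 (unadjusted p = 0.0489) without NEXN-WT replicate 1. With estimated array weights *Ogn* gave −0.28 (unadjusted p = 0.14). *Ecm2* measured 2.42, 1.68 and 1.74 against 1.34, 1.26 and 1.36, a difference of −0.63 (SE 0.21, unadjusted p = 0.0185, adjusted p = 0.221), or −0.39 (unadjusted p = 0.0154) without NEXN-WT replicate 1. In both genes replicate 1 was again the highest NEXN-WT heart, and the lowest NEXN-WT heart was above the highest NEXN-S437E heart.

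*Dcn*, the best known collagen-binding and TGF-β-binding member, depended on the scaling. Relative to the 75th percentile it measured 8.35, 8.23 and 8.49 in NEXN-WT hearts and 8.22, 8.24 and 8.35 in NEXN-S437E hearts, which overlap. The difference was −0.09 (SE 0.14, limma adjusted p = 0.765), and the 95% interval of −0.42 to 0.24 leaves out a 2-fold change in either direction on this scale. It was again −0.09 without NEXN-WT replicate 1. On the deposited normalized log2 scale its values were 16.15, 15.64 and 15.76 against 15.31, 15.37 and 15.55, without overlap, and the difference was −0.44 (limma unadjusted p = 0.0343, adjusted p = 0.284). Quantile normalization here gave −0.45 (unadjusted p = 0.0336) and normexp background correction with it −0.40 (unadjusted p = 0.0262), so *Dcn* was lower by less than 2-fold on those scales. Over all alternatives its adjusted p ran from 0.253 to 0.942. *Podn*, whose product is a matrix protein of smooth muscle and kidney that restrains smooth muscle growth, had the opposite sign. Its values were 1.42, 1.20 and 0.95 against 1.58, 1.50 and 1.54, with all NEXN-S437E hearts above all NEXN-WT hearts. The difference of 0.35 (SE 0.16, unadjusted p = 0.0624, adjusted p = 0.314, 95% interval −0.02 to 0.72) did not pass the test, and leaving out NEXN-WT replicate 1 gave 0.46 (unadjusted p = 0.0122, adjusted p = 0.236).

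**Figure D1:**
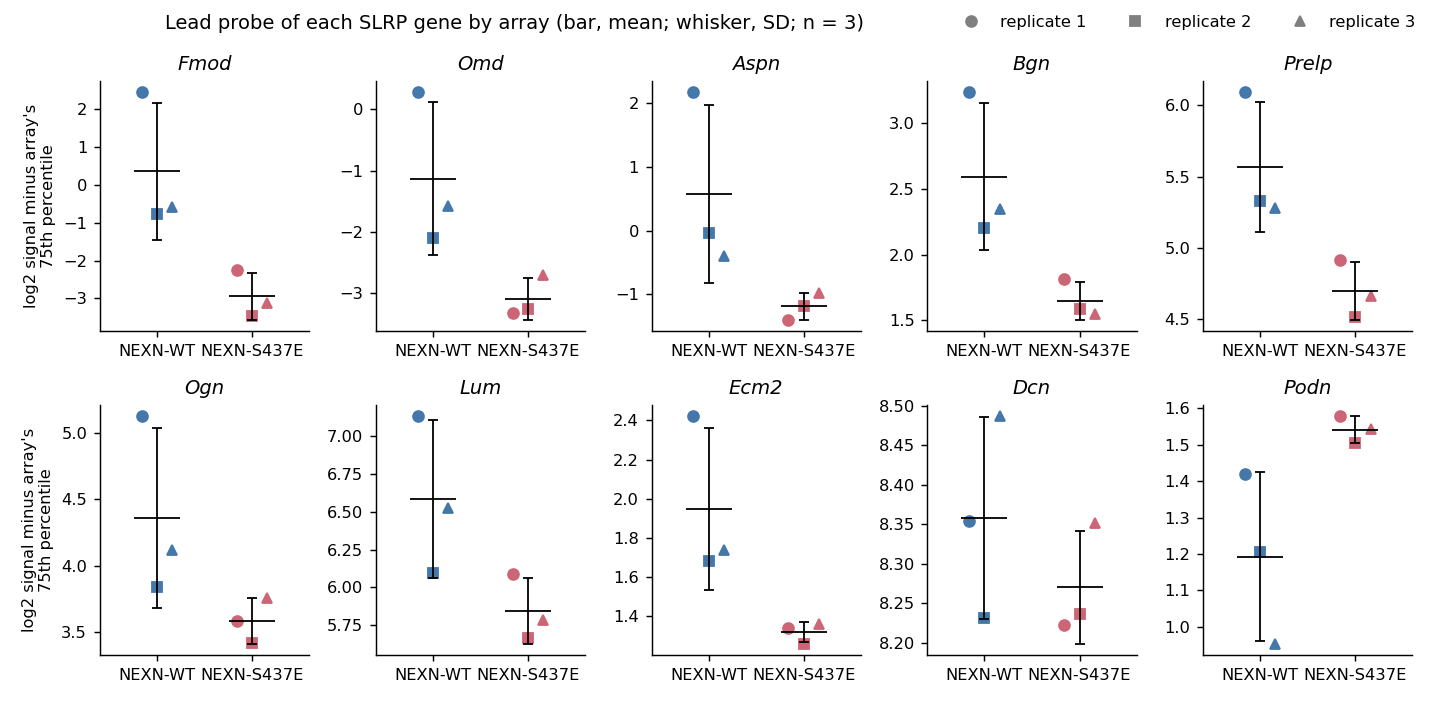
Values of the lead probe of each SLRP gene (log2 signal minus the array's 75th percentile, vertical axes scaled to each gene) on the 3 NEXN-WT (blue) and 3 NEXN-S437E (red) arrays, with mean and SD. NEXN-WT replicate 1 (circle) is the highest point in 8 of the 10 panels, while *Dcn* overlaps between groups on this scale and *Podn* is higher in NEXN-S437E hearts.

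**Figure D2:**
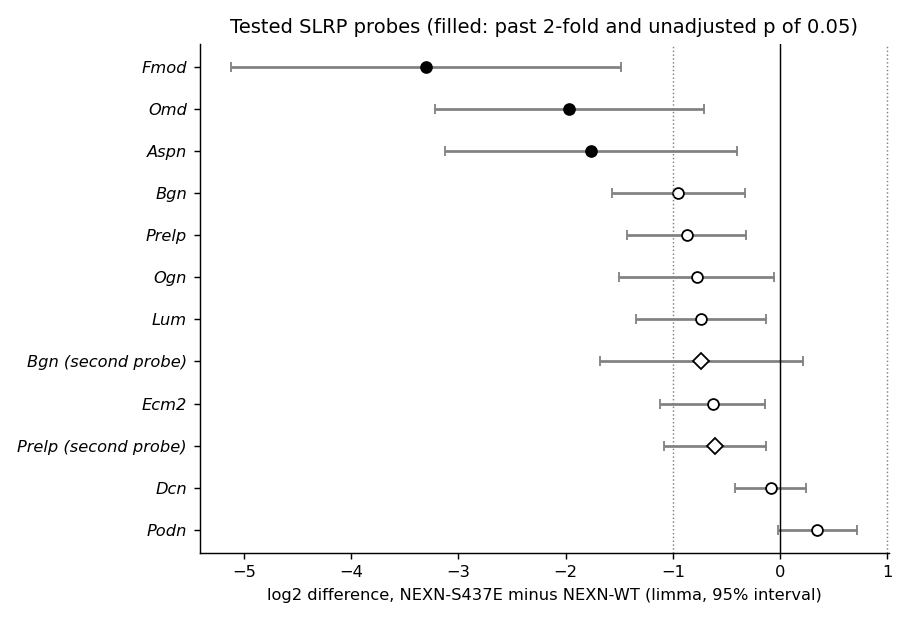
Differences between the groups for the 12 tested SLRP probes (log2, NEXN-S437E minus NEXN-WT) with 95% limma intervals, circles for lead probes and diamonds for second probes. *Fmod*, *Omd* and *Aspn* are past 2-fold (dotted lines) with p below 0.05, and the *Dcn*, *Podn* and second *Bgn* intervals include 0.

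The size of the differences rested in part on NEXN-WT replicate 1. It was the highest of all 6 arrays for 10 of 12 tested probes, and over lead probes it exceeded the mean of the other NEXN-WT replicates by a median of 0.89 (log2). The 9 of 12 probes without overlap had to keep replicates 2 and 3 above all NEXN-S437E hearts, so this order is no separate check. No further probe joined them, and 12.6% of all tested probes had this order. Over lead probes the mean of the pair was above the NEXN-S437E mean by a median of 0.54. The SD among NEXN-WT hearts was larger than that among NEXN-S437E hearts for all 10 lead probes, with medians of 0.54 and 0.19, beside 0.24 and 0.16 over all tested probes. The 3 genes with the largest falls were also those with the largest NEXN-WT SD (1.80 for *Fmod*, 1.39 for *Aspn* and 1.25 for *Omd*), against 0.13 for *Dcn*. The number of SLRP probes past both thresholds was 2 when NEXN-WT replicate 1 was left out, 5 when it was replicate 2 of that group, and 6 when it was replicate 3. It was 5 on the deposited normalized values, where *Bgn* and *Prelp* joined *Fmod*, *Omd* and *Aspn*, and 1 (*Omd*) with the slide row as a term in the fit. The first row of the slide held all NEXN-WT arrays and NEXN-S437E replicate 1, so with this term only that NEXN-S437E array set the group difference.

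**Figure D3:**
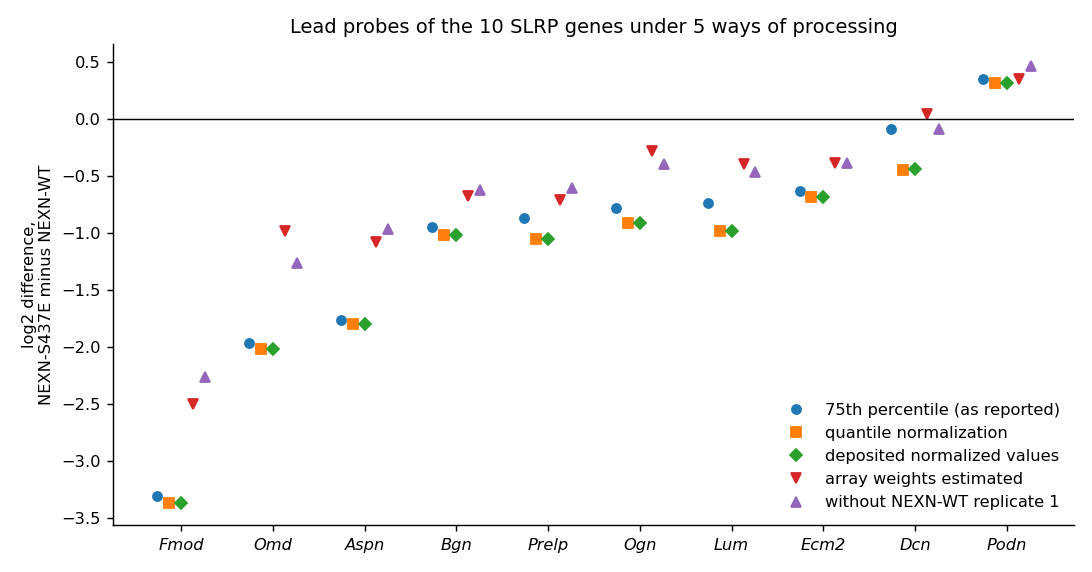
Log2 differences (NEXN-S437E minus NEXN-WT) of the 10 lead probes under 5 ways of processing, with genes ordered by the reported value. Leaving out NEXN-WT replicate 1 moves *Fmod* from −3.30 to −2.26 and *Aspn* from −1.76 to −0.97, quantile normalization moves *Dcn* to −0.45, and estimated array weights bring *Dcn* to 0.04.

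Because both *Dcn* and its family members were read on the same arrays, the change of each member relative to *Dcn* does not depend on the percentile used for scaling. Relative to *Dcn*, 7 of the other 9 genes were lower in every NEXN-S437E heart than in every NEXN-WT heart, with changes from −3.21 for *Fmod* to −0.54 for *Ecm2* (log2), where 5.85% of 13738 genes were lower in this way. Leaving out NEXN-WT replicate 1 cannot create overlap where there was none, so the 7 of 9 were kept by construction. It reduced the falls, to −2.17 for *Fmod*, −0.37 for *Lum*, −0.31 for *Ogn* and −0.30 for *Ecm2*. *Lum* was lower by 0.65 with a slight overlap between groups, since NEXN-WT replicate 2 had a low value, and *Podn* was higher by 0.44 without overlap. An exact two-sided permutation test of 3 hearts against 3 cannot give a p below 0.1, so none of these 9 comparisons, which were chosen after the values were seen, could pass 0.05. On the deposited normalized values 6 of the 9 were lower without overlap, *Ecm2* was −0.24 with overlap, and *Podn* was again higher. These ratios are a description and do not show that *Dcn* was constant.

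Several SLRP genes lie next to each other in the genome. In the RefSeq gene order *Ecm2*, *Aspn*, *Omd* and *Ogn* are consecutive coding genes of chromosome 13, *Dcn* and *Lum* are neighbours on chromosome 10, and *Prelp* and *Fmod* on chromosome 1, while *Podn* (chromosome 4) and *Bgn* (chromosome X) stand alone. The lead probes of the chromosome 13 cluster lie at mm9 chr13:49628083-49628142 (*Ecm2*), chr13:49662479-49662538 (*Aspn*), chr13:49687847-49687906 (*Omd*) and chr13:49719549-49719608 (*Ogn*), 91.5 kb in all. Within this stretch the 2 inner genes differed by −1.76 and −1.97 and the 2 outer genes by −0.63 and −0.78. The lead probes of *Dcn* (chr10:96980233-96980292) and *Lum* (chr10:97035210-97035269) are 55.0 kb from end to end and differed by −0.09 and −0.74. Those of *Prelp* (chr1:135806934-135806993, minus strand) and *Fmod* (chr1:135943998-135944057) span 137 kb and differed by −0.87 and −3.30. The fitted differences within each stretch were of unequal size, and that of *Dcn* was not told apart from 0 on this scale. The *Podn* probe is at chr4:107687484-107687543 on the minus strand. Whether a probe lies in an exon, an intron or a UTR was not determined, as no mm9 annotation was used here.

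The 250 bases before the start of 4 genes are shown, the 3 that fell past both thresholds and *Podn*, which had the opposite sign. They come from RefSeq on GRCm38.p6, are written 5′ to 3′ in the direction of the gene, and have in capitals every match on either strand to TATAAA (the TATA box), CCAAT (the site of NF-Y), GGGCGG (the GC box), TGANTCA (the AP-1 site) and CAGAC (a SMAD-binding sequence). None of these motifs contains another. The windows are chr1:134037004-134037253 (plus strand) for *Fmod*, chr13:49582212-49582461 (plus) for *Omd*, chr13:49544193-49544442 (plus) for *Aspn* and chr4:108031955-108032204 (minus) for *Podn*.
Fmod: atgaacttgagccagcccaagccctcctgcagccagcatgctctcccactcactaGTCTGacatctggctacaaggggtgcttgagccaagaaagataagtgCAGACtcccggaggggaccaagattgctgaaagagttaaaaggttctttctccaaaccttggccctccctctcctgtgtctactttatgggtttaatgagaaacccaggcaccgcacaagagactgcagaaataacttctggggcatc
Omd: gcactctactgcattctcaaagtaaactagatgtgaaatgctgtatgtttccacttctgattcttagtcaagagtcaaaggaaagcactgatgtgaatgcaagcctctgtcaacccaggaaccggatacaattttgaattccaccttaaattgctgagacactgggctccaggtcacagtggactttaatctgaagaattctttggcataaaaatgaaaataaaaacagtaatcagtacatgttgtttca
Aspn: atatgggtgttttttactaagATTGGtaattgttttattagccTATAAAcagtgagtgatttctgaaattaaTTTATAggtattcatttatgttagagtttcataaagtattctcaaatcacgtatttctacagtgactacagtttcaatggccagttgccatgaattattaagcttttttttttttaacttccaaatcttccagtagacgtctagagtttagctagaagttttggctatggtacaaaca
Podn: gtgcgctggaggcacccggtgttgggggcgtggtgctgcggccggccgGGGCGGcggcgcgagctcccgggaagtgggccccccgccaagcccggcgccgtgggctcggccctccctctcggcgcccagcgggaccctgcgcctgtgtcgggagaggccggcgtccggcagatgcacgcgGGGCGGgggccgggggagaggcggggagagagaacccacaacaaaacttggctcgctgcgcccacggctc

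The *Fmod* window has 2 matches to CAGAC, the *Aspn* window 2 to TATAAA and 1 to CCAAT, the *Podn* window 2 to GGGCGG and the *Omd* window 0 to any of the 5. GC content was 51.2% for *Fmod*, 38.4% for *Omd*, 30.0% for *Aspn* and 78.0% for *Podn*, beside a median of 52.4% over 32851 windows of the same length. No motif was common to the 3 genes that fell. Over the 9 windows found for 8 SLRP genes (*Dcn* and *Lum* were not in the table and *Podn* has 2), TATAAA occurred in 2 (12.4% of all windows), CCAAT in 2 (33.8%), GGGCGG in 3 (32.7%), TGANTCA in 0 (6.75%) and CAGAC in 2 (42.2%). The other *Podn* window (chr4:108030987-108031236, minus strand, GC content 64.0%) had 0 matches to the 5 motifs, and the upstream window of the pair was the one printed. The matches describe these letters only.

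The collagens that SLRPs bind were lower. The fitted differences of all 11 listed collagens were past 2-fold at an unadjusted p below 0.05, where 2.18% of all genes were called lower, but *Col2a1*, *Col5a2* and *Col12a1* were tested only through the NEXN-WT group. All 8 that were well above background on all 6 arrays were called lower, beside 1.46% of 12931 such genes. Each of the 11 had every NEXN-S437E heart below every NEXN-WT heart, as 11.3% of all genes did. The median difference of the 11 was −1.50 (log2), and that of the 8 was −1.41. *Col1a1*, which with *Col1a2* forms the main fibril of scar, fell by 1.82 (SE 0.30, limma adjusted p = 0.0794), from 6.24 ± 0.66 to 4.42 ± 0.11 (mean ± SD, n = 3). *Col1a2* fell by 1.50 (SE 0.31) and *Col3a1*, the other fibril collagen of the heart, by 1.35 (SE 0.22). *Col5a1*, whose product starts fibrils, fell by 1.57 (SE 0.28), and *Col6a3* and *Col6a2*, of the beaded network to which *Bgn* and *Dcn* bind, by 1.41 (SE 0.26) and 1.07 (SE 0.21). None of the 11 passed the adjusted threshold. Without NEXN-WT replicate 1 *Col1a1*, *Col3a1*, *Col5a1*, *Col6a3* and *Col14a1* did (limma adjusted p from 0.0196 to 0.0466). In that fit 130 of all tested probes passed it, against 39 as reported. Without NEXN-WT replicate 1, 8 of 11 were called lower, with a median of −1.10, or 5 of the 8 detected in all 6 hearts (*Col1a1*, *Col1a2*, *Col3a1*, *Col5a1* and *Col6a3*), and with the slide row as a term 6 were. In the 3 collagens with no NEXN-S437E array well above background, *Col2a1*, *Col5a2* and *Col12a1*, the falls are given as bounds, at least 1.48-fold, 3.04-fold and 3.06-fold (the NEXN-WT mean against the lowest signal called well above background on each NEXN-S437E array). These bounds rested largely on NEXN-WT replicate 1, without which no bound remained for *Col2a1* and those of *Col5a2* and *Col12a1* were 1.6-fold and 1.28-fold. The summed linear collagen signal, relative to the 75th percentile, was 319 to 678 in NEXN-WT hearts and 148 to 172 in NEXN-S437E hearts, again highest in NEXN-WT replicate 1.

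Most enzymes that build the sugar chains stayed within 2-fold. Among those of chondroitin and dermatan sulfate 16 of 19 differences were below 0, and 10 genes were lower without overlap (11.3% of all genes). Of 22 listed chondroitin and dermatan sulfate enzymes 19 were tested, 2 fell and 0 rose past both thresholds (2.18% of all genes were called lower), with a median of −0.27. They were *Chst11*, a chondroitin 4-O-sulfotransferase (−1.07, SE 0.22, limma adjusted p = 0.109), and *Dse*, the epimerase that turns chondroitin into dermatan sulfate (−1.18, SE 0.43, adjusted p = 0.241, well above background on 1 of 3 NEXN-S437E arrays). *Dse* was tested only through the NEXN-WT group. Of the 18 enzymes well above background on all 6 arrays 1 was called lower, *Chst11* (1.46% of such genes). Without NEXN-WT replicate 1, 0 of the 19 passed both thresholds. *Chst11* was then −0.97, just short of 2-fold (limma unadjusted p = 0.0046), and *Dse* was −0.86 and passed neither threshold. Of 6 listed keratan sulfate enzymes 3 were tested and 0 passed, with *Fut8*, a fucosyltransferase, nearest at −0.27 (SE 0.17, adjusted p = 0.443). Of 8 other SLRP genes 2 were tested and 0 passed, with *Tsku* (tsukushi) nearest at −0.46 (SE 0.21, adjusted p = 0.315). *Kera*, *Epyc*, *Nyx*, *Chad* and *Podnl1*, known from cornea, cartilage and eye or as a relative of *Podn*, had no array well above background.

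Of 13 listed proteases and cofactors that process or cut SLRPs, 9 were tested, and 4 fell and 0 rose past both thresholds (2.18% of all genes were called lower), with a median of −0.93. Of the 7 well above background on all 6 arrays 2 were called lower (1.46% of such genes), *Mmp2* and *Adamts4*, since *Mmp14* and *Gzmb* were tested only through the NEXN-WT group. *Mmp2*, a gelatinase, fell by 1.76 (SE 0.40, limma adjusted p = 0.133) and the aggrecanase *Adamts4* differed by −1.44 (SE 0.28, adjusted p = 0.104). *Mmp14*, the membrane protease that activates MMP2, had no NEXN-S437E array well above background and fell at least 2.25-fold (adjusted p = 0.110). Without NEXN-WT replicate 1 its bound was 1.83-fold. *Gzmb*, a granzyme of cytotoxic cells that can cut decorin and biglycan, differed by −1.39 (SE 0.53, adjusted p = 0.256), with overlapping groups and 1 of 3 NEXN-S437E arrays well above background, and by −2.09 without NEXN-WT replicate 1, its lowest NEXN-WT array. The protease list thus included a gene of lymphocytes. Of 16 listed receptors and growth factors bound by SLRPs, all 16 were tested, 1 fell and 0 rose (2.18% of all genes were called lower), with a median of −0.36. It was *Tgfb3*, a TGF-β ligand (−1.34, SE 0.31, adjusted p = 0.132), from 3.87 ± 0.68 to 2.52 ± 0.04. Without NEXN-WT replicate 1 the same 4 proteases were called lower, and of the receptors and growth factors 0 were. *Tgfb3* was then −0.96, short of 2-fold (limma unadjusted p = 0.000248, adjusted p = 0.0463). With normexp background correction 1 of the 9 proteases was called lower, *Mmp2*.

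**Figure D4:**
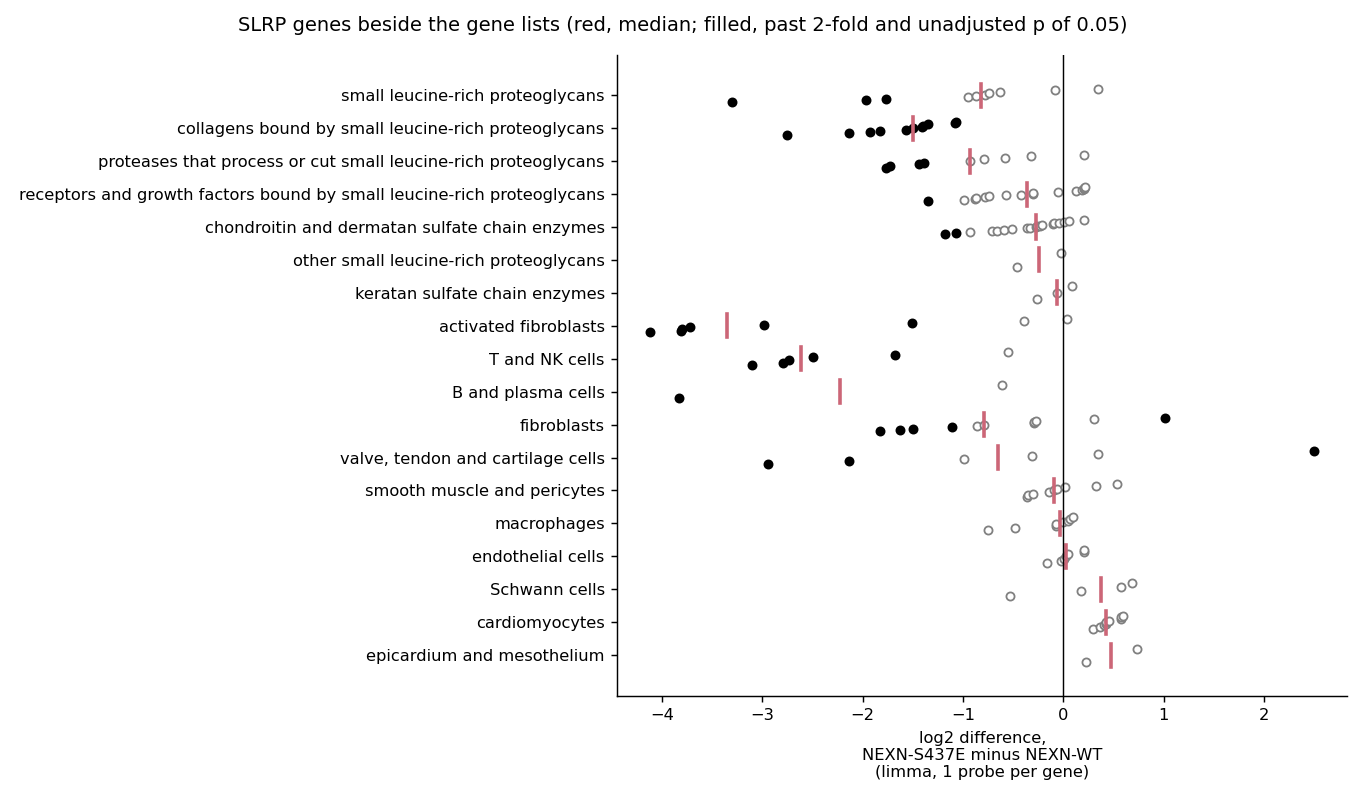
Log2 differences (NEXN-S437E minus NEXN-WT) of the SLRP genes and of each listed gene, 1 probe per gene, with list medians in red and filled points past 2-fold and an unadjusted p of 0.05. Collagens are all filled on the lower side (median −1.50), the SLRP genes spread from −3.30 to 0.35, and the 9 cardiomyocyte markers lie above 0 (1 of them below 0 after quantile normalization). *Col2a1*, *Col5a2*, *Col12a1*, *Mmp14*, *Jchain*, *Cd3g* and *Lect1* are drawn at their fitted values, although 1 group was not well above background.

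Of 11 markers of fibroblasts, the main source of SLRPs, 9 had a difference below 0, with a median of −0.79, and 7 were lower without overlap (11.3% of all genes). Past both thresholds 4 fell (*Col1a1*, *Pi16*, *Mfap4* and *Col1a2*), where 2.18% of all genes were called lower and 0.764% higher, and 1 rose, *Scara5* (1.01, SE 0.41, limma adjusted p = 0.271, groups overlapping), while 6 others including *Pdgfra* (−0.86) and *Tcf21* (−0.29) did not pass both thresholds. *Col1a1* and *Col1a2* are also in the collagen list. Without NEXN-WT replicate 1, 3 of 11 were called lower and *Scara5* no longer passed (0.51). The summed linear signal of the fibroblast list was 384 to 634 in NEXN-WT hearts and 261 to 282 in NEXN-S437E hearts. Of 8 markers of activated fibroblasts 6 fell, among them *Comp* (−4.12, SE 0.69, adjusted p = 0.0797), *Cilp* (−3.81, SE 0.43, adjusted p = 0.0222), *Ltbp2* (−3.81, SE 0.62), *Cthrc1* (−3.72, SE 0.83, well above background on 1 of 3 NEXN-S437E arrays), *Postn* (−2.98, SE 0.62) and *Meox1* (−1.51, SE 0.37), where 2.18% of all genes were called lower, and the same 6 were called without NEXN-WT replicate 1. Of 7 well above background on all 6 arrays 5 were called lower (1.46% of such genes). *Cilp* passed the adjusted threshold. Without NEXN-WT replicate 1 *Postn*, *Cthrc1*, *Ltbp2* and *Comp* passed it too (limma adjusted p from 0.0052 to 0.0198). The sum of this list was 122 to 312 against 59.4 to 103, of which *Acta2*, a gene of smooth muscle too, made up 47.7 to 90.3 in NEXN-S437E hearts. Without *Acta2* the sum of the other 7 genes was 49.6 to 269 against 11.7 to 13.2. The markers *Acta2* and *Fap* differed by 0.03 and −0.39. In bulk tissue, fewer cells of a type and less RNA per cell cannot be told apart, and the part of fibroblast number in the SLRP values was not tested.

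Other cell types were measured the same way. Of 6 T and NK cell markers 5 fell (2.18% of all genes did), 4 of them also past the adjusted threshold, which no SLRP probe passed, with sums of 5.99 to 11.2 against 1.63 to 2.20: *Ccl5* (−2.73), *Cd3d* (−2.49), *Nkg7* (−2.79), *Cd2* (−1.68) and *Cd3g*, which was at least 2.19-fold lower. *Cd3g* was tested only through the NEXN-WT group. Of the 5 T and NK cell markers well above background on all 6 arrays 4 were called lower (1.46% of such genes). NEXN-WT replicate 1 had the lowest T and NK cell sum of its group, the reverse of its place for the SLRPs. Of 2 tested B and plasma cell markers 1 fell, *Jchain*, at least 4.15-fold, where 2.18% of all genes were called lower. *Jchain* was tested only through the NEXN-WT group, and the 1 marker well above background on all 6 arrays was not called. Of 6 tested valve, tendon and cartilage markers 2 fell, *Thbs4* (−2.94, SE 0.64) and *Col2a1*, and 1 rose, *Lect1*, at least 1.97-fold, where 2.18% of all genes were called lower and 0.764% higher. *Col2a1* and *Lect1* were each tested only through the group in which they were high, and *Thbs4* was the 1 call among the 4 markers well above background on all 6 arrays, while *Acan* and *Hapln1*, which define cartilage, had no array well above background. None of the tested markers of macrophages, endothelial cells, smooth muscle and pericytes, Schwann cells or epicardium passed both thresholds, and *Fcgr1* (−0.75), *Tek* (−0.17), *Abcc9* (0.53), *S100b* (0.68) and *Msln* (0.73) had the smallest p of each list. Only 2 of 6 listed epicardium markers were tested. All 9 cardiomyocyte markers were measured, with all differences above 0 (1 was below 0 after quantile normalization) and 0 past both thresholds (*Myh6* 0.57, SE 0.16, limma adjusted p = 0.177), and their sums were 1883 to 2343 in NEXN-WT and 2949 to 3004 in NEXN-S437E hearts. The part of these cell types in the SLRP values was not tested.

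**Figure D5:**
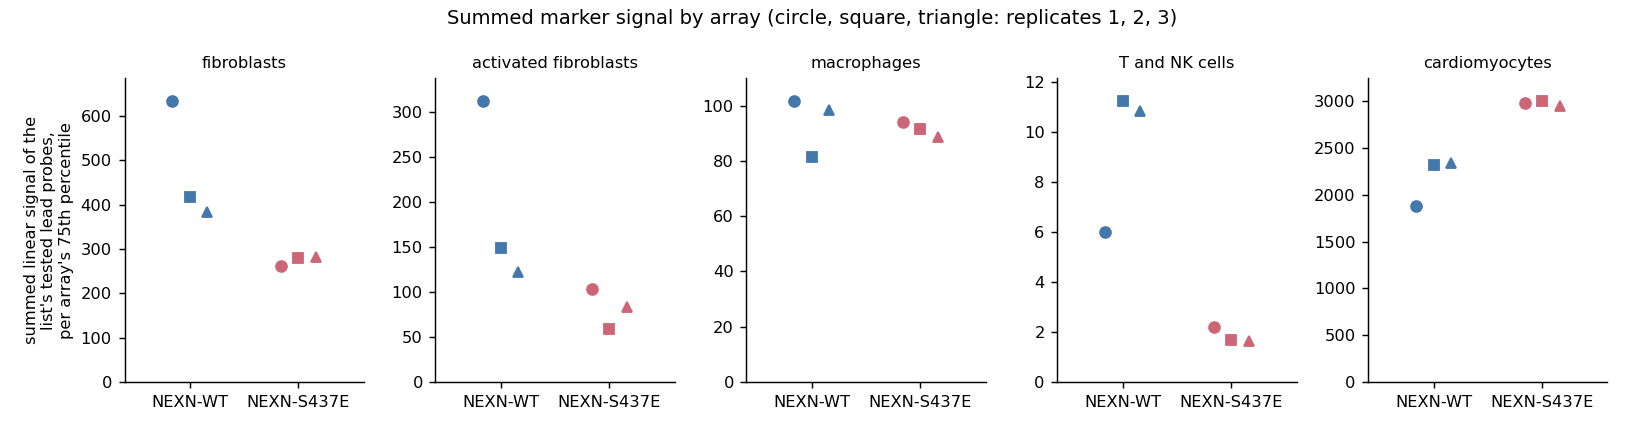
Summed linear signal of 5 marker lists on each array, relative to the array's 75th percentile, for NEXN-WT (blue) and NEXN-S437E (red) hearts, each panel with its own axis from 0. Fibroblast and activated fibroblast sums are highest in NEXN-WT replicate 1 (circle), T and NK cell sums are 5.99 to 11.2 against 1.63 to 2.20, and cardiomyocyte sums are higher in NEXN-S437E hearts.

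Likeness of pattern was measured as the root mean square difference between values centred on their mean over the 6 arrays, on the log2 scale. Among the SLRP genes the most alike pair was *Bgn* and *Prelp* (0.11), followed by *Lum* and *Bgn* (0.15), and *Omd* and *Aspn* differed by 0.31, while *Fmod* was 0.88 from its nearest member, *Omd*. *Dcn* and *Podn* were nearest to each other (0.29). Of 12923 other genes the 5 most like the mean of the members were *Adcy7* (0.04), *Matn2* (0.09), *C1qtnf5* (0.09), *Trim59* (0.10) and *Tro* (0.10). *Itgbl1* (0.20), an integrin-like secreted protein gene, was nearest to *Aspn*, *Mmp23* (0.07) to *Bgn*, *Tgfb2* (0.06) to *Prelp*, *Fbln5* (0.06), of elastic fibres, to *Ogn*, *Fyb* (0.08) to *Lum*, *Ptgfrn* (0.05) to *Ecm2*, *Arl16* (0.02) to *Dcn* and *Rnf180* (0.05) to *Podn*. These distances describe 6 arrays, among which NEXN-WT replicate 1 weighs heavily.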

How the data were processed

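RNA of 6 *Clk4*-cKO hearts (3 per group, assigned from the sample titles) was labelled with Cy3 and read on Agilent mouse expression arrays, all on 1 slide. The authors deposited linear spot intensities from Feature Extraction 10.7.1.1, background-subtracted and not normalized between arrays, with flags for signal above background. A second deposited table gives log2 values already normalized. Its 6 columns hold identical sorted values, and 99.9% lie within 0.1 of quantile-normalized signals. The normalization is not named in the sources used here. Probe coordinates are on mm9.

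Here log2 processed signals, without control and outlier spots, had each array's 75th percentile subtracted. The 22998 probes that every array of 1 or both groups measured well above background were fitted with limma 3.58.1 (lmFit and eBayes, R 4.3.3, data.table version 1.17.8), with Benjamini-Hochberg adjustment over all of them and no covariate. Calls were made at 2-fold with an unadjusted p of 0.05, as the study did, and separately at an adjusted p of 0.05. The lead probe of a gene is its tested probe of highest mean. Where no array of a group was well above background, the fold is a bound. Each array is 1 mouse, so p-values measure the spread between mice, and the number of arrays and the brightness of a probe set the precision. The test was tested on simulated data.

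The members and lists were chosen with earlier results of these data known, and the lists hold background knowledge of the family. All members are named with every probe, and, of each list, the called genes (at most 6 by smallest p, or the gene of smallest p where none passes). Collagens not above background in 1 group, other markers of a list and comparisons with *Dcn* were added after their values were seen. Also named are the 5 genes most like the members' mean and the gene nearest to each member well above background on all 6 arrays, of the 3 nearest. Sequences were read with Python 3.11.15 and Biopython 1.88 and figures drawn with matplotlib 3.10.9.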

Additional observations from a re-analysis of the deposited data

How the results depend on the processing

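Over 20 alternative settings the 12 SLRP probes gave 237 differences, of which 212 kept their direction and their side of the thresholds, 13 moved past both thresholds, 11 moved back and 1 reversed, that of *Dcn* (0.041 with estimated array weights). SLRP probes past 2-fold and an unadjusted p of 0.05 numbered 3 as reported, 5 after quantile normalization, 5 on the deposited normalized values, 1 of 9 with a filter on all 6 arrays, 1 with the methods' t-test, 1 with the slide row as a term, and 2 to 6 with each array left out. Probes past the adjusted threshold rose from 0 to 9 (8 lower) with array weights, when 4177 probes in all passed, and were 0 with each array left out. The median over lead probes, −0.82, was −0.54 with array weights and −1.01 to −0.54 with each array left out. Called genes of the pathway lists numbered 18, and 9 with normexp background correction, 12 to 22 with each array left out; those of the marker lists numbered 20, and 18 to 22. *Fmod* ranged from −3.87 to −1.85 over all settings, *Omd* from −2.45 to −0.87 and *Aspn* from −2.25 to −0.97. Their adjusted p ranged from 0.0058 to 0.507, 0.0493 to 0.474 and 0.0242 to 0.511. Without a filter on dim probes the median of all probes moved by 0.19 (log2), which left the SLRP values as they were. Leaving out NEXN-WT replicate 1 with quantile normalization and the t-test on deposited values were added after seeing the data. Causes were not tested.

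The replicate numbers did not pair the hearts, since deviations of same-numbered hearts correlated at −0.15, −0.03 and −0.18. With the number as a block, 3 SLRP probes, 18 pathway genes and 20 marker genes were called, and the median was again −0.82. The smallest adjusted p of an SLRP probe was 0.0668.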

Other observations

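A probe for an asporin cDNA that carries no gene symbol in the deposited annotation (A_52_P723294) was not well above background on any of the 6 arrays. Its values were −5.93, −4.96 and −5.36 in NEXN-WT hearts and −4.80, −5.68 and −5.25 in NEXN-S437E hearts, so it added no measurement of *Aspn*.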
